A study of Caenorhabditis elegans with 6 samples.

Results

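The clec genes of Caenorhabditis elegans encode proteins with a C-type lectin domain, and 239 protein-coding genes with a clec symbol were found among the 47656 genes of the deposited table, of which 19998 were protein-coding. Members were taken by symbol alone, as clec followed by a number, and 25 clec pseudogenes were left out. C-type lectin domains are compact folds that in many animals bind sugars with the help of calcium. In worms the family is greatly expanded, and most members are predicted to be secreted or to sit in the membrane. Many are made in the intestine, and sets of clec genes change their expression when worms meet pathogenic bacteria, for which reason they are often read as markers of innate immunity.

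Poly(A) RNA of whole wild-type animals was sequenced from 6 libraries, 3 from animals given ilimaquinone and 3 from vehicle animals. Ilimaquinone is a sesquiterpenoid quinone of marine sponges. The ilimaquinone animals were kept from the L4 stage for 11 days in complete S-Basal with 100 µM of the compound, and the vehicle animals in the same medium without it. The medium of both groups held 200 µM FUDR, which blocks DNA synthesis and so the growth of progeny, and the antibiotic ampicillin at 100 µg/mL. Both groups were kept at 20 °C. Nothing in the labels states that replicates were separate cultures, so p-values below measure only the spread between these samples, which may be technical. In RNA of whole animals, fewer cells of a type and less RNA per cell cannot be told apart.

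The libraries held 32155192 to 39244786 estimated counts. Vehicle replicate 1 stood apart from the rest: on the first principal component the ilimaquinone libraries lay at -54.1 to -25.1, and vehicle replicates 1, 2 and 3 at 98.8, -0.13 and 26.5. Summed over 30 germline and oocyte markers, the level ranged over 837.5 to 1181 CPM (counts scaled to a common library size) with ilimaquinone, and was 4889, 1343 and 1589 CPM in vehicle replicates 1, 2 and 3. Summed over 6 yolk genes, it ranged over 668.5 to 1165 CPM with ilimaquinone, and was 7049, 1651 and 2361 CPM in vehicle. Every marker of both lists had counts in some library. None was called in edgeR, with 22 germline and 5 yolk genes lower and none higher at an unadjusted p under 0.05, and 19 and 3 called lower in DESeq2. Of all genes, 11.8% were lower at that unadjusted p, and DESeq2 called 5.86% lower. The median log2 fold change was -1.52 for the germline and oocyte list and -1.365 for yolk, or -0.55 and -0.76 without vehicle replicate 1. The sum over 20 neuron markers was 3714 to 4227 CPM with ilimaquinone, and 2331, 4030 and 4029 CPM in vehicle. Medians of the clec genes and of the other gene lists are given below with and without this library.

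Of the 239 clec genes, 31 had no count in any library and 78 had too few to test, which left 130. The genes left untested were low in every group, with a highest mean over all libraries of 0.561 TPM (a level scaled by transcript length and library size). Among them clec-175 and clec-153 had the most counts, and both had their highest level in vehicle replicate 1, at 1.52 TPM each. Of the tested genes, 4 rose and 2 fell with ilimaquinone in the edgeR quasi-likelihood test at an adjusted p under 0.05. These are 3.08% and 1.54% of the tested members, beside 1.14% higher and 0.327% lower among all 16506 genes tested. The genes that rose were clec-18, clec-128, clec-121 and clec-3, and those that fell were clec-51 and clec-52. Most other members lay on the low side without passing the test.

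**Figure D1:**
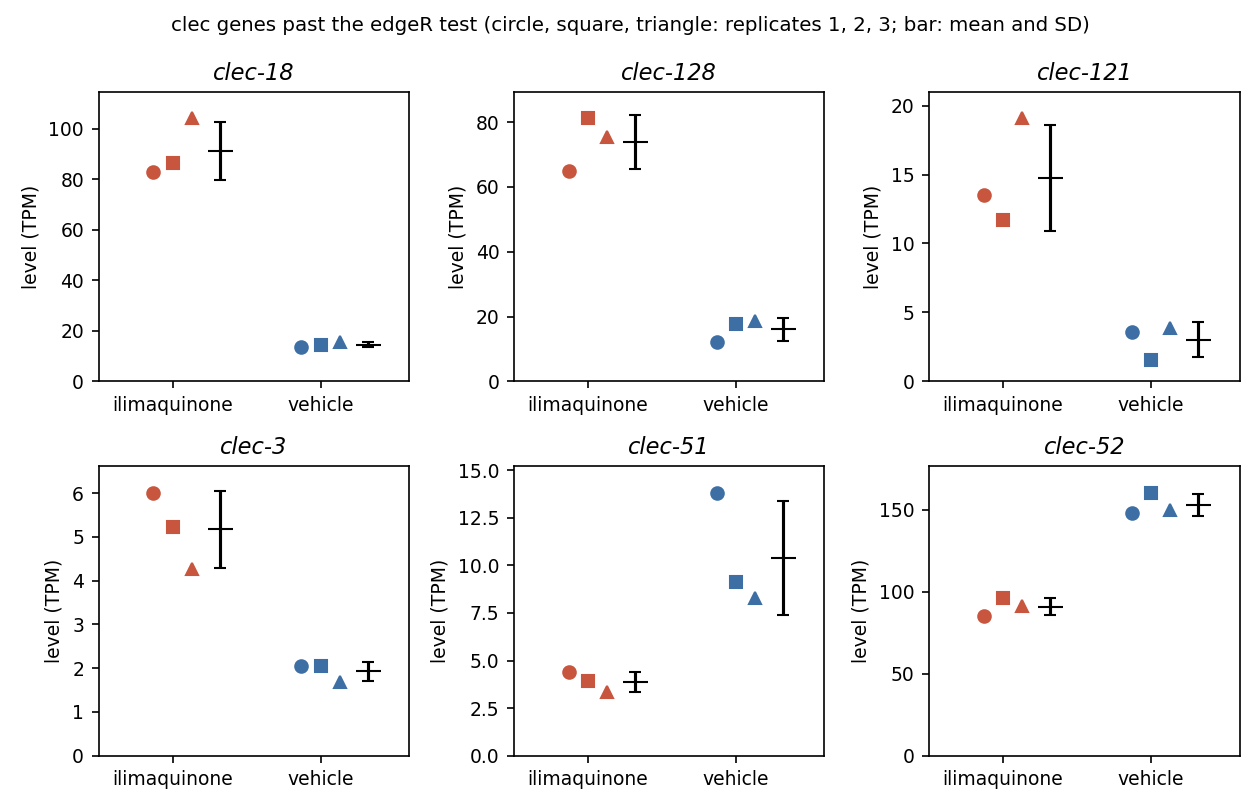
Level in TPM of the 6 clec genes past the edgeR test, for the 3 ilimaquinone and the 3 vehicle libraries, with each point a library and the bar the mean and SD. The ilimaquinone libraries lie apart from the vehicle libraries in every panel, above them for clec-18, clec-128, clec-121 and clec-3 and below them for clec-51 and clec-52.

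The clec gene with the largest fold change past the test was clec-18 (gene 186419, chromosome I, 12301424 to 12303157, minus strand, build WBcel235). Its level was 82.9, 86.7 and 104.2 TPM in the ilimaquinone libraries, against 13.7, 14.6 and 15.4 TPM in the vehicle libraries. The groups were far apart, and the vehicle libraries, including replicate 1, were close to each other. The log2 fold change was 2.62 ± 0.16 (SE; adjusted p = 0.00308, edgeR). It was the 1 clec gene that passed the test whichever single library was left out, with a log2 fold change between 2.5015 and 2.72 in those fits.

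The gene clec-128 (gene 189339, chromosome II, 3569430 to 3571027, minus strand) stood at 64.8, 81.2 and 75.4 TPM with ilimaquinone, against 12.1, 17.8 and 18.5 TPM in vehicle. Every ilimaquinone library was above every vehicle library. Its log2 fold change was 2.15 ± 0.24 (adjusted p = 0.0153, edgeR). It also passed without any 1 of the vehicle libraries, but not without an ilimaquinone library, where the adjusted p reached 0.117. The neighbouring member on the same strand, clec-127 (3568117 to 3569218), had 3.28, 3.30 and 3.76 TPM with ilimaquinone, against 0.684, 0.982 and 1.68 TPM in vehicle. Its groups did not overlap either, but its log2 fold change of 1.57 ± 0.41 was not past the test (adjusted p = 0.123, edgeR). In DESeq2 the adjusted p of clec-127 was 0.0114. The other tested member of that neighbourhood, clec-130, was at 0 to 0.901 TPM with ilimaquinone and 0.199 to 1.01 TPM in vehicle, and its groups overlapped.

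Elsewhere on chromosome II, clec-121 (gene 189537, 3102318 to 3104736, plus strand) had 13.5, 11.7 and 19.1 TPM with ilimaquinone, against 3.61, 1.57 and 3.90 TPM in vehicle. The lowest ilimaquinone library was well above the highest vehicle library. The log2 fold change was 2.27 ± 0.38 (adjusted p = 0.0451, edgeR). The gene clec-3 (gene 183396, 3017468 to 3019907, minus strand) had 6.01, 5.23 and 4.27 TPM with ilimaquinone, against 2.06, 2.04 and 1.68 TPM in vehicle, again without overlap. Its log2 fold change was 1.41 ± 0.21 (adjusted p = 0.0386, edgeR). Its locus overlaps C41H7.2, which had a log2 fold change of -0.48 ± 0.19. Both clec-121 and clec-3 passed in 1 of the 6 fits that left out a library, the one without vehicle replicate 1 (adjusted p = 0.0420 for clec-121 and 0.0245 for clec-3).

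Near clec-121 lies clec-123, which had 0.707 to 1.12 TPM with ilimaquinone, against 8.47 TPM in vehicle replicate 1 and 0.986 and 1.79 TPM in the other vehicle libraries. Its log2 fold change of -2.01 ± 0.73 was not past the test, and it was -0.77 without vehicle replicate 1. These neighbours therefore had fitted changes of opposite sign.

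The 2 genes that fell are neighbouring members on the minus strand of chromosome IV. The more abundant, clec-52 (gene 181855, 8167164 to 8168813), is a member of the list of clec genes that other work has linked to bacterial infection, here Staphylococcus aureus. It had 85.5, 96.1 and 91.3 TPM with ilimaquinone, against 148.3, 160.6 and 150.01 TPM in vehicle. Both groups were tight and did not overlap. Its log2 fold change was -0.77 ± 0.11 (adjusted p = 0.0327, edgeR). The gene clec-51 (gene 181854, 8161953 to 8163800) had 4.39, 3.92 and 3.34 TPM with ilimaquinone, against 13.8, 9.12 and 8.27 TPM in vehicle, a log2 fold change of -1.41 ± 0.22 (adjusted p = 0.0398, edgeR). Its levels were low in every ilimaquinone library, and vehicle replicate 1 was the highest of all. Most of the clec-51 signal came from the transcript of 1021 bases, which made up 89.5% of the gene's TPM with ilimaquinone and 90.2% in vehicle. An exon of clec-51 overlaps faah-1 on the opposite strand, which had a mean of 54.3 TPM with ilimaquinone and 59.0 TPM in vehicle. With the strand mode of the counting not given in the sources used here, reads of the shared stretch cannot be assigned to either gene with certainty. Both genes passed in 1 of the 6 fits that left out a library, without vehicle replicate 1 (adjusted p = 0.00506 for clec-52 and 0.0157 for clec-51).

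The fitted fold change was negative for 92 of the 130 tested clec genes and positive for 38. The share of positive values was thus 29.2%, against 48% among all tested genes. The median log2 fold change was -0.45, against -0.02 over all genes tested. In 38 members every ilimaquinone library lay below every vehicle library in CPM, which is 29.2% of the tested members beside 15% of all tested genes. In 13 members every ilimaquinone library lay above, which is 10% beside 15.8%. At an unadjusted p under 0.05, 39 members were lower and 13 higher, or 30% and 10%, beside 11.8% and 10.1% of all tested genes. These shares describe the family, and genes are not independent of each other. Without vehicle replicate 1 the median was -0.32, with 89 negative values among the same genes, and 4 members were called higher and 8 lower, beside 2.68% and 1.63% of all genes in that fit. DESeq2's Wald test called 8 members higher and 26 lower, or 6.3% and 20.5% of the 127 it adjusted, beside 5.45% and 5.86% of all genes. When ilimaquinone replicate 1, 2 or 3 was left out, edgeR called clec-18 higher and no member lower in each fit, beside 0.106%, 0.135% and 0.0648% of all genes higher and 0%, 0.00586% and 0% lower. Without vehicle replicate 2 it called 3 members higher and 0 lower, beside 0.687% and 0.148% of all genes. Without vehicle replicate 3 it called 2 higher and 2 lower, beside 0.549% and 0.124%. The lower pair in that fit, clec-160 and clec-80, was not the pair called with all libraries.

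**Figure D2:**
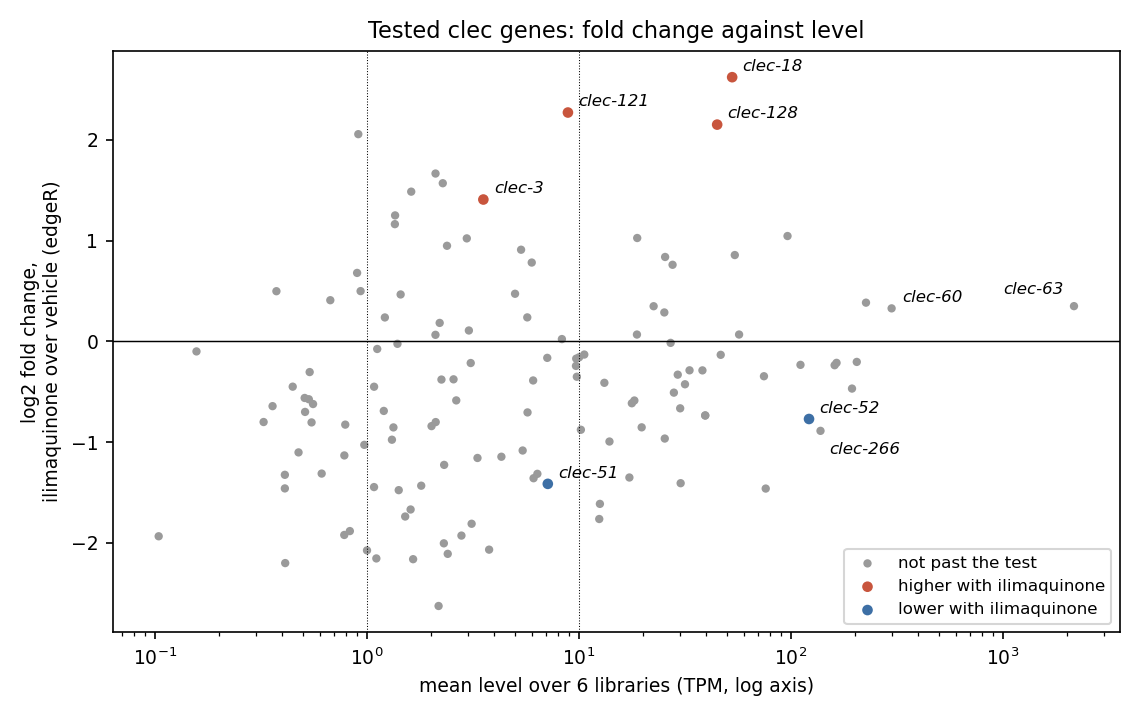
Log2 fold change of ilimaquinone over vehicle (edgeR) of the 130 tested clec genes against their mean level over the 6 libraries in TPM on a log axis, with dotted lines at 1 and 10 TPM. Of the points, 92 lie below 0, and the genes called in either direction have mean levels between 3.55 and 121.97 TPM.

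The direction was described by abundance. In vehicle, 134 clec genes had a mean under 1 TPM, 55 had 1 to 10 TPM and 50 had over 10 TPM. Of the lowest class 25 were tested, 16 with a negative and 9 with a positive fold change, and none was called (median log2 fold change -0.56). All of the 55 in the middle class were tested. Of these 40 were negative and 15 positive, with a median of -0.83, and clec-3 and clec-121 rose. Of the 50 most abundant, 36 were negative and 14 positive, with a median of -0.29; clec-18 and clec-128 rose and clec-51 and clec-52 fell. Groups did not overlap in CPM, on the high and the low side, for 3 and 6 members of the low class (12% and 24%, beside 11% and 13.6% of all tested genes of that class). In the middle class these were 5 and 17 (9.09% and 30.9%, beside 13.5% and 17.6%), and in the high class 5 and 15 (10% and 30%, beside 18.6% and 13.4%). Over all genes tested in the same vehicle classes, the medians were -0.03, -0.07 and -0.00089. The vehicle mean is itself 1 side of the fold change, so the classes were also cut by the mean over all 6 libraries. The medians were then -0.75, -0.42 and -0.29 for the low, middle and high classes, with 21 of 26, 39 of 58 and 32 of 46 members negative. Over all genes tested in those classes the medians were -0.31, -0.06 and 0.02, with 35.6%, 45.3% and 53.1% of values positive. The low class of all genes thus also lay on the low side under this cut. Without vehicle replicate 1 the medians of the vehicle classes were -0.19, -0.69 and -0.24.

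**Figure D3:**
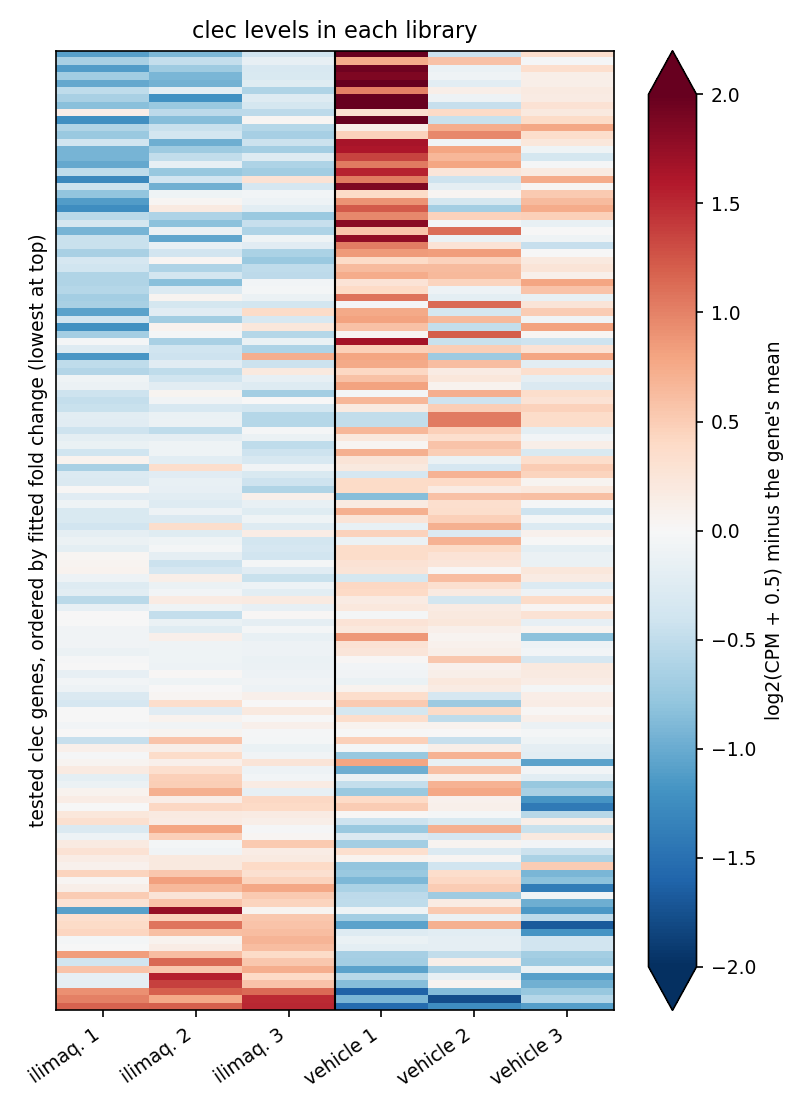
Level of each of the 130 tested clec genes (rows, ordered by fitted fold change with the most negative at the top) in each library (columns), as log2(CPM + 0.5) minus the gene's mean over the libraries. At the top, vehicle replicate 1 is the highest library for many genes, and 55 of the 130 genes have their highest CPM there.

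Many of the most negative members were high in vehicle replicate 1 alone. In 55 tested members, or 42.3%, that library had the highest CPM of all 6, beside 33.6% of all tested genes. In 30 members its CPM was over 2 times the mean of vehicle replicates 2 and 3, which is 23.1% beside 14.5%. These 30 genes summed to 316, 290 and 328 TPM in the ilimaquinone libraries, against 1198, 331 and 265.9 TPM in the vehicle libraries. The ilimaquinone sums lay within the range set by vehicle replicates 2 and 3, and vehicle replicate 1 was far above all others. Since vehicle values chose these genes, their fold changes are given as a description. Of them 26 were negative with a median of -1.44, which was -0.63 without vehicle replicate 1, and none was called in edgeR with all libraries. Other fits did call some of them lower, such as clec-87, clec-123 and clec-160 in DESeq2 and clec-160 in edgeR without vehicle replicate 3. The other 100 tested members had a median of -0.32, with 66 negative, and -0.26 without that library.

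Among the 30 were clec-87, clec-88 and clec-91, named after their values were seen. The gene clec-87 had 42.2, 29.8 and 45.4 TPM with ilimaquinone, against 236.7, 48.9 and 54.3 TPM in vehicle. The gene clec-88 had 18.3, 12.7 and 16.6 TPM with ilimaquinone, against 93.7, 22.04 and 18.2 TPM in vehicle. The gene clec-91 had 9.49, 6.22 and 12.5 TPM with ilimaquinone, against 52.6, 11.8 and 11.4 TPM in vehicle. In each of them vehicle replicate 1 was about as far above the other vehicle libraries, at 3.88, 3.83 and 3.83 times their mean CPM. None passed the test (adjusted p = 0.202, 0.204 and 0.236, edgeR). In the same order they share exon bases with iars-2, ctsa-4.1 and ZK858.8, so reads of the shared stretches could belong to either gene. Those 3 genes had log2 fold changes of -0.12, -0.84 and -2.55. The most negative fitted value in the family was that of clec-79, at -2.63 ± 0.89, with 9.16 TPM in vehicle replicate 1, 0.764 and 1.46 TPM in the other vehicle libraries and 0.379 to 0.837 TPM with ilimaquinone. Germline, yolk and neuron markers move with this library as given above, and their part in these values was not tested.

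**Figure D4:**
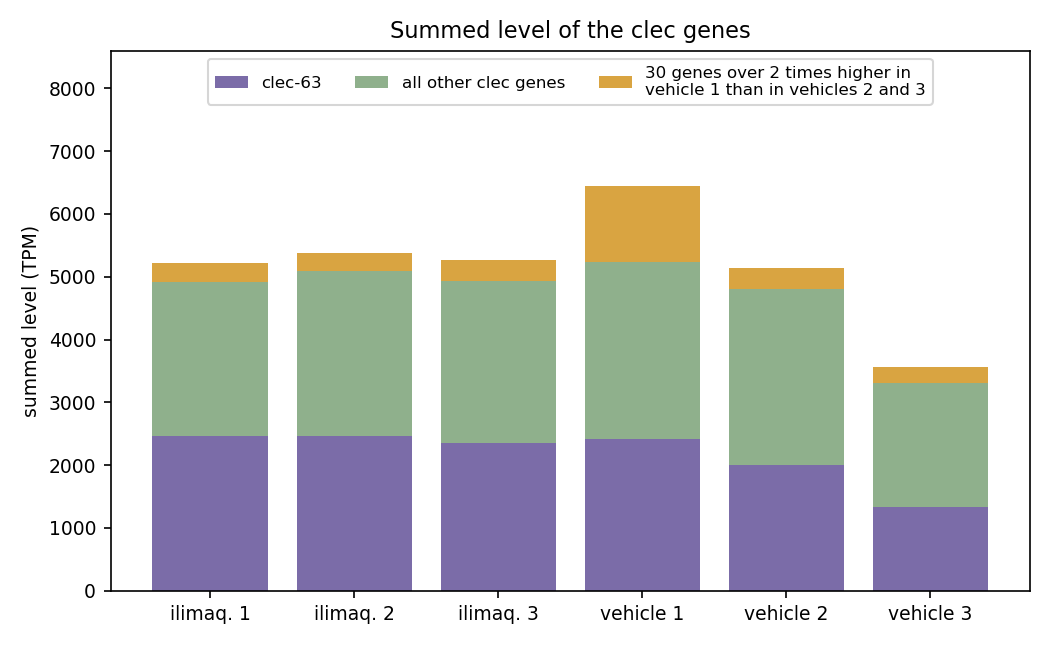
Summed level in TPM of the 239 clec genes in each library, split into clec-63, the 30 tested genes over 2 times higher in vehicle replicate 1 than in the mean of vehicle replicates 2 and 3, and the rest. The ilimaquinone bars reach 5225 to 5377 TPM, and the vehicle bars 6439, 5133 and 3568 TPM.

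The family's RNA came mostly from a few genes. All clec genes together had 5225, 5377 and 5262 TPM in the ilimaquinone libraries, against 6439, 5133 and 3568 TPM in the vehicle libraries, so the groups overlapped and vehicle varied more. The gene clec-63 (gene 174927, chromosome II, 12895533 to 12897462, plus strand) alone had 47, 45.8 and 44.8% of that sum with ilimaquinone, against 37.4, 38.8 and 37.3% in vehicle. Its level was 2458, 2464 and 2357 TPM with ilimaquinone, against 2410, 1994 and 1331 TPM in vehicle. The TPM ranges overlapped through vehicle replicate 1, whereas in CPM after TMM scaling every ilimaquinone library was above vehicle. The log2 fold change of 0.35 ± 0.16 was not past the test (adjusted p = 0.261, edgeR).

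The next genes in abundance also missed the test. The gene clec-60, induced in worms by Staphylococcus aureus and Microbacterium nematophilum, had 307.5, 312.4 and 369.3 TPM with ilimaquinone, against 409.1, 283.6 and 112.8 TPM in vehicle. The spread in vehicle was wide and held all ilimaquinone values. For clec-146 the levels were 277.0, 254.7 and 241.1 TPM with ilimaquinone, against 189.8, 173.6 and 222.6 TPM in vehicle, without overlap in TPM but with overlap in CPM (log2 fold change 0.38 ± 0.15; adjusted p = 0.211, edgeR). The levels of clec-65, clec-50, clec-62 and clec-83 averaged 148 to 191 TPM with ilimaquinone and 174 to 226 TPM in vehicle, with log2 fold changes of -0.47 to -0.20, none past the test, and overlapping TPM ranges. In CPM every ilimaquinone library was below vehicle for clec-50, clec-62 and clec-83 but not for clec-65, and in DESeq2 clec-50 was at an adjusted p of 0.0499. The gene clec-266 had 105.1, 70.5 and 101.0 TPM with ilimaquinone, against 399.1, 77.1 and 76.2 TPM in vehicle. It was high in vehicle replicate 1 alone: its log2 fold change of -0.89 ± 0.58 was 0.18 without that library. An exon of clec-266 overlaps kqt-1 on the opposite strand.

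Several members with small p-values missed the adjusted threshold in edgeR with all libraries. On the high side, clec-5 averaged 70.5 ± 6.06 TPM with ilimaquinone and 38.4 ± 7.496 TPM in vehicle (SD, n = 3 each), a log2 fold change of 0.86 ± 0.18 (adjusted p = 0.0783, edgeR). The gene clec-1 averaged 129.8 ± 10.04 TPM with ilimaquinone and 63.3 ± 24.7 TPM in vehicle (adjusted p = 0.108, edgeR). Their groups did not overlap. The genes clec-59, clec-19, clec-248 and clec-209 had log2 fold changes of 0.91 to 1.67 and edgeR adjusted p of 0.115 to 0.204. For clec-19 the ilimaquinone libraries disagreed, at 1.41, 5.96 and 2.33 TPM. DESeq2 called clec-5, clec-1 and clec-59 higher, but not clec-19, clec-248 or clec-209, beside 5.45% of all genes.

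On the low side, clec-82 averaged 7.22 ± 0.958 TPM with ilimaquinone and 13.2 ± 2.14 TPM in vehicle, a log2 fold change of -0.88 ± 0.15. Its adjusted p was 0.0508 in edgeR, and 0.0324 without vehicle replicate 1. It shares exon bases with Y54G2A.7, a gene on the same strand that fell by 0.69 ± 0.12 on the log2 scale (adjusted p = 0.0462, edgeR), so reads of the shared stretch could belong to either. The genes clec-165, clec-198 and clec-184 had log2 fold changes of -1.23, -1.88 and -1.92 with edgeR adjusted p of 0.0649, 0.0767 and 0.0767. Without vehicle replicate 1 these were 0.0445, 0.0473 and 0.0217. The last of them, clec-184, had 0.293, 0.387 and 0.304 TPM with ilimaquinone, against 0.881, 1.42 and 1.42 TPM in vehicle, with replicate 1 the lowest of the vehicle libraries. The genes clec-258 and clec-160 had log2 fold changes of -1.32 and -1.76. Within vehicle, clec-160 spanned 8.28 to 33.7 TPM. DESeq2 called clec-82, clec-165, clec-198, clec-184, clec-258 and clec-160 lower, beside 5.86% of all genes.

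Of 18 clec genes that other work has linked to bacterial infection, 14 were tested. None rose, and clec-52 fell, with 0 higher and 9 lower at an unadjusted p under 0.05, a level that 10.1% and 11.8% of all genes passed in those directions. The median log2 fold change was -0.69, against -0.45 over all tested clec genes and -0.02 over all genes. Without vehicle replicate 1 it was -0.83, with 3 members called lower beside 1.63% of all genes, and DESeq2 called 0 higher and 7 lower, beside 5.45% and 5.86% of all genes. The gene clec-67, a target of the PMK-1 p38 kinase pathway, had 14.1, 22.9 and 15.4 TPM with ilimaquinone, against 26.3, 52.2 and 21.9 TPM in vehicle. Another target of that pathway, clec-85, had 2.503, 5.375 and 3.37 TPM with ilimaquinone, against 10.05, 10.1 and 5.316 TPM in vehicle. The ranges of both overlapped slightly in TPM, whereas in CPM every ilimaquinone library was below vehicle. Neither passed the test (adjusted p = 0.200 and 0.157, edgeR), and in DESeq2 the adjusted p was 0.0637 and 0.0304. The deposited locus of clec-85 lies over that of clec-84, so both values are uncertain. The genes clec-4, clec-7, clec-49, clec-66, clec-42 and clec-41 had log2 fold changes of -1.16 to -0.35, and clec-82 is described above. The genes clec-86, clec-60, clec-61 and clec-17 had log2 fold changes of 0.07 to 0.76, of which clec-17 averaged 35.04 ± 3.16 TPM with ilimaquinone and 20.4 ± 10.2 TPM in vehicle.

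The family is spread unevenly over the genome, with 85 members on chromosome V, 53 on IV, 48 on II, 36 on I, 14 on III and 3 on X. The share of negative fold changes among tested members ran from 53.3% on chromosome I (8 of 15) to 83.3% on chromosome IV (25 of 30), beside 60.3% and 55.3% of all tested genes on those chromosomes. On chromosome IV the median was -0.67, or -0.68 without vehicle replicate 1, with 17 members lower and 0 higher at an unadjusted p under 0.05 (56.7% and 0%, beside 15.7% and 9.07% of all tested genes of that chromosome). On chromosome II, where 3 of the 4 members that rose lie, 8 were higher and 7 lower at that level (22.9% and 20%, beside 8.94% and 12.5%). On chromosome V 12 were lower and 3 higher (30% and 7.5%, beside 10.6% and 13.9%), and no member was called in edgeR with all libraries. Whether the chromosomes differ was not tested.

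Neighbours were common: 106 members lay in 20 runs of at least 3 clec genes spaced by at most 20 kb. A run on chromosome IV from 2823746 to 2855459 held clec-80, clec-82, clec-83, clec-84 and clec-85. All had negative values, of -1.36 to -0.24, and none was called in edgeR with all libraries. DESeq2 called clec-80, clec-82 and clec-85 lower, beside 5.86% of all genes. Both clec-82 and clec-83 share exon bases with Y54G2A.7, and the loci of clec-84 and clec-85 overlap, so the values in this run may not be separate readings. A run of 13 members on chromosome V from 16839121 to 16869845 had 6 that could be tested. Of these clec-25, clec-36, clec-26, clec-37 and clec-35 had log2 fold changes of -2.20 to -0.70, while clec-40 at its edge had 0.50 ± 0.41. All 6 were rare, at 0.04 to 1.18 TPM with ilimaquinone and 0.31 to 4.24 TPM in vehicle. None was called in edgeR with all libraries, and DESeq2 called clec-36 lower. The median of that run was -1.49, and -1.22 without vehicle replicate 1.

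Other runs differed in the sign of their values. The run of clec-62, clec-63, clec-64, clec-65 and clec-66 on chromosome II had log2 fold changes of -1.08 to 0.35, with the family's most abundant gene the 1 positive value. The 3 tested genes of the run with clec-59, clec-60 and clec-61 had values of 0.33 to 1.02. The run of 12 members around clec-67 and clec-79 on chromosome IV had 4 positive and 4 negative values among 8 tested genes. The genes clec-136, clec-137, clec-138 and clec-139 lie within the locus of pqn-35, which has the opposite strand, and had values of -1.48 to -0.02.

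**Figure D5:**
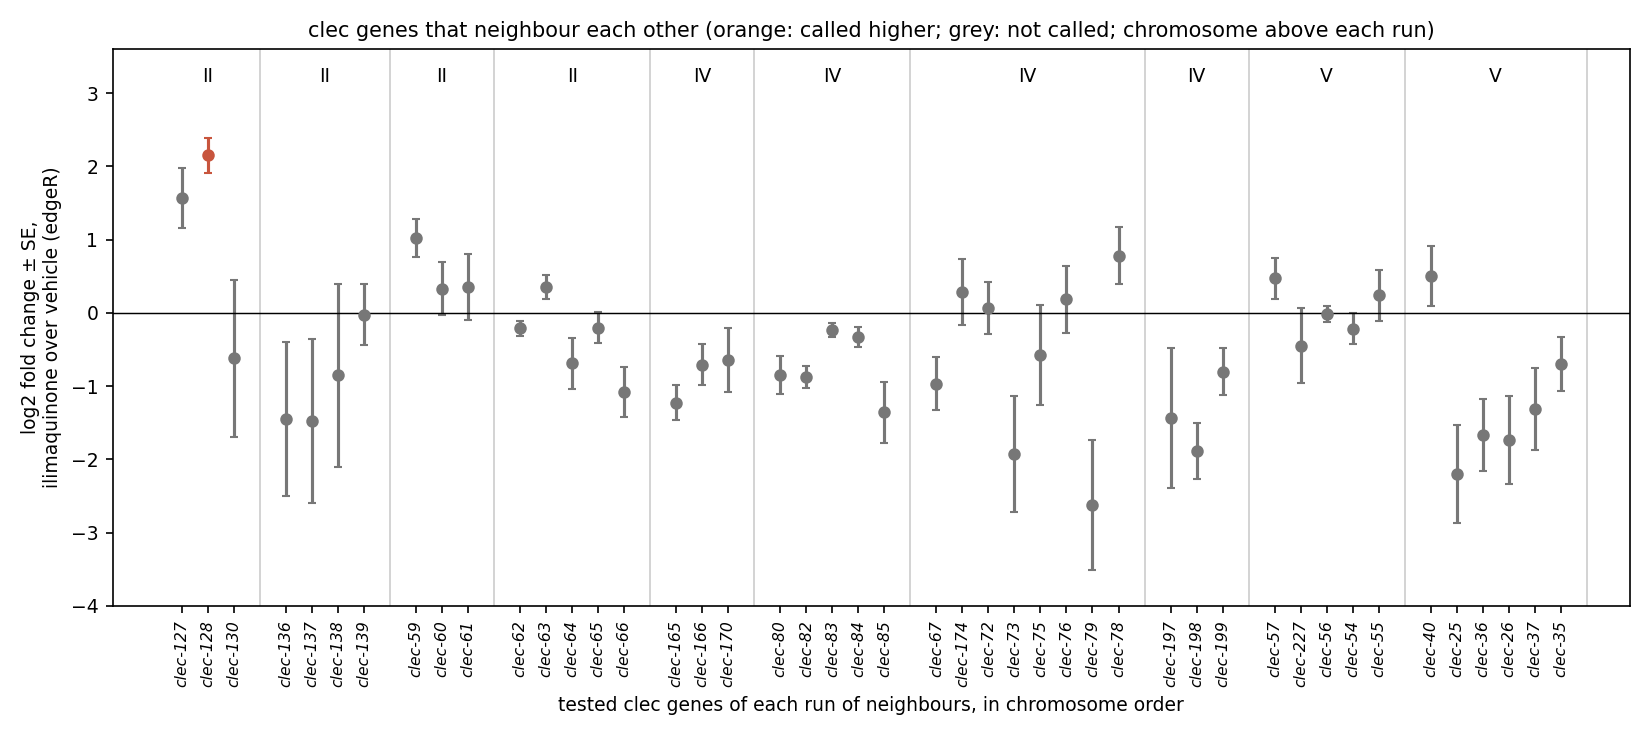
Log2 fold change of ilimaquinone over vehicle (edgeR) with its SE for tested clec genes in runs of neighbours with at least 3 tested members, in chromosome order within each run and with the chromosome above it. The gene clec-128 is the 1 member called in these runs, and the values of clec-25 to clec-35 on chromosome V lie between -2.20 and -0.70.

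Some values cannot be assigned to 1 gene. Of the tested members, the loci of 49 overlap another gene with counts, and 20 share exon bases with it in the Ensembl annotation. Some of the overlapping genes had few counts, such as F25B4.12 at clec-1 with 2. Overlap of loci alone does not show that reads were shared. The neighbours clec-13 and clec-15 on chromosome I, 2617 bases apart and on opposite strands, had counts that differed by at most 4 in every library, at 906 to 2605 counts each for clec-15, so their shared log2 fold change of -0.74 stands for the pair. No other pair of members with at least 50 counts agreed within 5% in every library. The clec pseudogenes were not called: 5 of 25 could be tested, 0 had an unadjusted p under 0.05, and clec-131 had the largest value, 1.85 ± 0.82 (adjusted p = 0.241, edgeR).

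Genes of the signalling that controls clec expression were measured beside them. Of 21 genes of p38 and related immune signalling none was called, with 4 higher and 1 lower at an unadjusted p under 0.05; DESeq2 called 2 higher and 1 lower. The 1 that was lower was tir-1, which encodes a TIR-domain adaptor upstream of the p38 cascade, with 137.5 ± 4.304 CPM with ilimaquinone and 180.3 ± 12.6 CPM in vehicle (adjusted p = 0.0920, edgeR). The list's median was 0.10, and 0.05 without vehicle replicate 1, where 1 was called higher. The catenin gene bar-1 had a log2 fold change of 0.45 ± 0.10 (adjusted p = 0.0897, edgeR). Of 10 genes of the DBL-1 pathway, a TGF-beta pathway of body size and immunity, 9 had positive values, and the median over the 10 was 0.30, and 0.17 without vehicle replicate 1. None was called, with 5 higher and 0 lower at an unadjusted p under 0.05 and 1 higher in DESeq2. The gene lon-1, a target the pathway represses, had 0.55 ± 0.14 (adjusted p = 0.124, edgeR). Beside the counts of both lists, 10.1% of all genes were higher and 11.8% lower at that unadjusted p. DESeq2 called 5.45% of all genes higher and 5.86% lower, and edgeR without vehicle replicate 1 called 2.68% and 1.63%.

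Other lectins and antimicrobial families had medians nearer to 0 than clec. The 12 galectin genes, whose proteins bind beta-galactosides, had a median of 0.05 and no call in edgeR, with 1 higher and 3 lower at an unadjusted p under 0.05 and 0 higher and 3 lower in DESeq2; without vehicle replicate 1 the median was -0.02 and 2 were called lower. Among them lec-2 averaged 457.5 ± 38.2 CPM with ilimaquinone and 645.1 ± 9.45 CPM in vehicle (adjusted p = 0.0649, edgeR). Of 12 tested lysozyme genes lys-3 rose (log2 fold change 1.12 ± 0.15), with 3 higher and 0 lower at an unadjusted p under 0.05; DESeq2 called the same numbers. Their median was -0.11 and turned to 0.14 without vehicle replicate 1. Of 22 tested saposin-like genes spp-9 and spp-21 rose (2.22 ± 0.12 and 2.78 ± 0.27), with 4 higher and 3 lower at an unadjusted p under 0.05 and 3 in each direction in DESeq2. Their median was -0.01; without vehicle replicate 1 it was -0.08, and 4 were called higher and 2 lower. Among all genes, edgeR called 1.14% higher and 0.327% lower, or 2.68% and 1.63% without that library. At an unadjusted p under 0.05, 10.1% of all genes were higher and 11.8% lower, and DESeq2 called 5.45% and 5.86%. The difference between these families and clec was not tested. Of 14 tested intestine markers, the tissue in which many clec genes are made, none was called, with 1 in each direction at an unadjusted p under 0.05 and none in DESeq2. Of these markers 2 had a positive fold change and the rest a negative one, beside 48% positive among all tested genes. Their median was -0.17 with or without vehicle replicate 1, and their summed level 3306 to 3603 CPM with ilimaquinone, against 3474 to 4280 CPM in vehicle.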

How the data were processed

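Libraries were prepared from 1 µg of total RNA by a stranded poly(A) method, according to the labels' protocols. The submitters' processing notes name bcl2fastq 2.20.0, HISAT2 2.1.0 and SAMtools 1.9 with build WBcel235. The counting program, strand mode and annotation, not given in the sources used here, can change which of 2 overlapping genes a read counts for. The deposited tables hold estimated counts (whole numbers), FPKM and TPM for genes and transcripts, per the file headers; the authors' FPKM values were left out.

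The members and lists were chosen with earlier results of these data known. Deposited counts of all genes were fitted in R 4.3.3 with edgeR 4.0.16 (filterByExpr, TMM, glmQLFit, glmQLFTest, Benjamini-Hochberg, threshold 0.05). The SE was taken as |log2 fold change|/√F. Levels are deposited TPM; CPM and non-overlap of groups use TMM-scaled library sizes. DESeq2 1.42.0 and limma 3.58.1 served as alternatives. Deviations of same-numbered libraries from their group means correlated at -0.161, 0.288 and -0.161. With 3 libraries a group, these values cannot decide whether the numbers pair them, and the main fit used no block. Genes were named by rule: called members, the 8 with the smallest p on each side, the 8 most abundant, infection-linked members and neighbours of called ones; genes of the runs and of exact overlaps, and clec-79, clec-87, clec-88, clec-91, clec-13, clec-15, tir-1, the pseudogene clec-131 and single transcripts, were chosen after their values were seen. Loci are deposited ones; 226 of 239 lay within 1000 bases of Ensembl release 115 at both ends, which gave strands and exons.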

Additional observations from a re-analysis of the deposited data

How the results depend on the processing

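The clec counts, of 4 higher and 2 lower, and the counts over all genes, of 188 and 54, moved with the tool, the filter and single libraries. DESeq2 called 8 and 26 members (882 and 949 genes), and with no filter on low counts edgeR called 2 and 0 (60 and 9). A stricter filter gave 4 and 4 (216 and 94). The lower count was 1 by library size alone, by upper-quartile factors, by limma on log2(TPM + 1), and among members that overlap no other gene. DESeq2's size factors gave 4 and 3, and limma on log2(TPM + 0.1) gave 4 and 2.

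Leaving out each library in turn gave 1 to 4 members higher and 0 to 8 lower, and 11 to 451 genes higher and 0 to 274 lower; the highest counts came without vehicle replicate 1 and the lowest over all genes without an ilimaquinone library. The labels do not say what a replicate number shares. With the replicate block, edgeR called 2 members higher and 0 lower (21 and 1 genes), and the median of members under 1 TPM in vehicle was -0.40.

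The median over all tested members was -0.27 by limma on log2(TPM + 1) and -0.54 to -0.32 when each library was left out. The median of members under 1 TPM moved most: it was -0.32 and -0.14 by limma with pseudocounts of 0.1 and 1 TPM, -0.75 in classes by the mean of all libraries, -0.70 to -0.19 when each library was left out, and 1.06 under the stricter filter, which left 2 members in that class. The median of members at 1 to 10 TPM was -0.51 by limma on log2(TPM + 1), -0.42 in classes by the mean of all libraries, and -0.89 to -0.64 when each library was left out, and that of members over 10 TPM was -0.39 to -0.24 in those fits. The cause of these shifts was not tested, other than the small number of members left by the stricter filter.

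Of 40 named members, only the 6 called with all libraries could lose a call under other settings. The rest counted as kept where they stayed uncalled with the same sign. Over the 40, 530 of 597 values kept their direction and side of the threshold, and 35, all of those 6 members, no longer passed it. A further 27 newly passed it, and 5 changed sign. Those changed sign when a vehicle library was left out: over fits without 1 library each, clec-60 ranged over -0.025 to 0.656, clec-61 over -0.054 to 0.765 and clec-86 over -0.016 to 0.138, each below 0 without vehicle replicate 3; clec-65 ranged over -0.396 to 0.043, above 0 without vehicle replicate 2, and clec-266 over -1.249 to 0.181, above 0 without vehicle replicate 1. The biological coefficient of variation over all tested genes was 28.4%, with 3 libraries a group, and members under 1 TPM rest on few counts.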

Other observations

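The transcripts of clec-266 were divided differently between libraries. The transcript of 797 bases had 64.8, 0.022 and 51.3 TPM in ilimaquinone replicates 1, 2 and 3, against 201, 0.033 and 39.3 TPM in the vehicle replicates. The transcript of 876 bases had 36.6, 69.6 and 47.4 TPM with ilimaquinone, against 192, 76.3 and 35.3 TPM in vehicle. In replicate 2 of each group nearly all of the gene's TPM was on the transcript of 876 bases. For clec-146, the transcript of 504 bases had 14.7 TPM in vehicle replicate 1 and 0.293 to 0.320 TPM in the other 5 libraries. How reads were divided among transcripts was not tested.

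In hypodermis, grd-10 was the 1 marker of 15 that rose in edgeR, with 3 higher and 1 lower at an unadjusted p under 0.05. DESeq2 called 3 higher and 0 lower. The list's median log2 fold change was 0.68, or 0.61 without vehicle replicate 1, where 2 were called higher. Its summed level was 679, 822 and 960 CPM with ilimaquinone, against 733, 617 and 358 CPM in vehicle. Of 15 muscle, 14 pharynx, 7 coelomocyte and 20 neuron markers none was called in edgeR, and the medians were 0.09, 0.28, 0.07 and 0.25. Without vehicle replicate 1 these were -0.02, 0.20, -0.01 and 0.06, so those of muscle and coelomocyte turned sign. At an unadjusted p under 0.05 there were 1, 2, 1 and 2 higher and 1, 2, 0 and 0 lower, and DESeq2 called 0, 1, 0 and 1 higher and 0, 2, 0 and 0 lower. All 20 sperm markers had negative values with a median of -1.92, or -1.05 without vehicle replicate 1. In edgeR spe-38 fell, with 18 lower and 0 higher at an unadjusted p under 0.05, and DESeq2 called 12 lower and 0 higher. The sperm markers summed to 20.3, 25.5 and 50.1 CPM with ilimaquinone, against 227, 44.6 and 87.1 CPM in vehicle. Beside the counts of all these lists, 10.1% of all genes were higher and 11.8% lower at an unadjusted p under 0.05. DESeq2 called 5.45% and 5.86% of all genes, and edgeR 1.14% and 0.327%, or 2.68% and 1.63% without vehicle replicate 1.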
